A study of Mus musculus with 3 samples.

Results

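The comparison described here is between 2 RNA-seq libraries of C2C12 cells, a mouse myoblast line that behaves as a mesenchymal precursor: one from mock-transfected cells kept in growth medium (mock-GM), the other, also mock-transfected, labelled DM+BMP2. Levels are in FPKM, the fragments counted per kilobase of transcript and per mapped library size, summed over a gene's transcripts. Of 22706 genes, 10728 met the rule for the comparison: 1 FPKM or more in either library, above 0 in both, and a RefSeq transcript of 300 nt or longer. The growth medium held 20% fetal serum. The protocol gives 2% horse serum for the differentiation medium (DM) and 100 to 300 ng/ml of recombinant BMP2 for osteoblastic differentiation, and the time in it appears only as the tag 1d in the sample's description. Serum and BMP2 therefore changed together and cannot be told apart, and the files used here hold no library of DM alone. The remaining library, labelled shKSRP and grown in growth medium, is quoted for its levels only. It has the same 20% serum and no BMP2, but Khsrp, the gene the hairpin targets, stood at 28.4 ± 0.64 FPKM there against 31.4 ± 0.85 in mock and 27.1 ± 0.67 with BMP2 (BMP2 over mock log2 ratio -0.20, or 0.77 from RefSeq transcripts alone), so its label is in doubt.

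BMP2 is a secreted ligand of the TGF-beta superfamily. It binds a complex of type I and type II serine/threonine kinase receptors, which phosphorylate SMAD1, SMAD5 and SMAD9; these enter the nucleus with SMAD4 and activate genes such as the Id family and the inhibitory SMADs. In C2C12 cells BMP2 is known to turn the cells from the muscle to the osteoblast lineage, while low serum alone takes them out of the cell cycle and towards myotubes.

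Of the 10728 genes, 832 (7.76%) were higher with BMP2 by at least 2-fold on the FPKM + 1 scale, 795 (7.41%) were lower and 9101 passed in neither direction. The counts of every gene list below are to be read beside these shares. The median log2 ratio was 0.04, with quartiles at -0.40 and 0.44. With 1 library on each side there is no replicate spread and no p-value, and "rose" and "fell" below mean past the 2-fold rule only. The ± after a level is the half-width of the deposited 95% interval, which covers counting and assignment of fragments and not the variation between cultures. The width of these intervals corresponds to about 61.9 M (mega) fragments in mock and 60.2 M with BMP2. At 10 FPKM or more the half-width had a median of 3.42% of the level in mock and 3.44% with BMP2, so the intervals did not overlap for 8770 of the 10728 genes, and for most genes the 2-fold rule, not the depth, sets the calls. For 15 called genes the half-width is larger than the level in one of the libraries. The scale sets their balance: summed FPKM was 677872 in mock and 564500 with BMP2, and setting these sums equal shifted the median of all genes up by 0.24 and gave 1347 higher and 515 lower (72.3% of calls higher, against 51.1% as deposited). A pseudocount of 1 understates the change of genes near 1 FPKM. Where RefSeq transcripts alone, without those assembled from the library's reads, move a gene's ratio by more than 1.5-fold, that ratio is given beside it. Of 177 compared genes chosen for naming, only 152 met the rule from RefSeq transcripts alone, so a missing ratio is not always agreement. Sp7, Tcf7, Nkd2, Nnat, Mmp14, Mmp28, Ryr1, Dusp4, Cdkn1c and Inhba are among those without one.

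**Figure D1:**
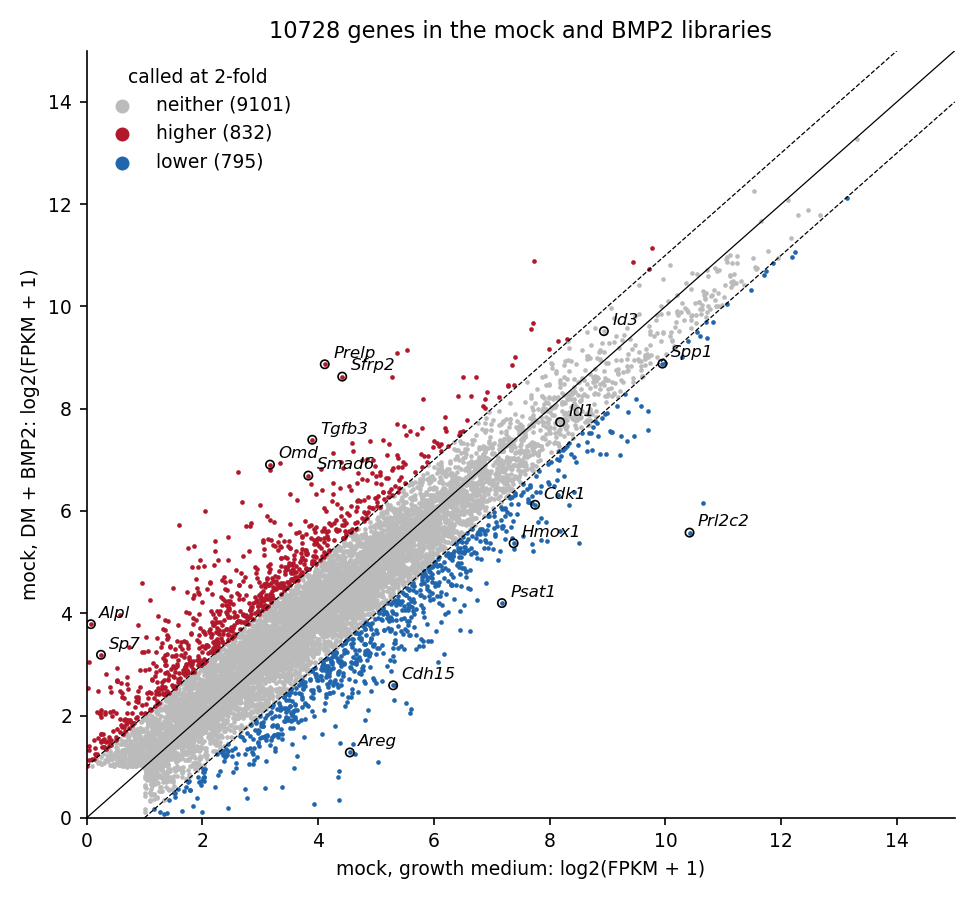
Level of each of the 10728 genes in the mock library (x axis) and the BMP2 library (y axis), both as log2(FPKM + 1). The solid line marks equal levels and the dashed lines 2-fold, with 832 genes above the upper dashed line in red, 795 below the lower one in blue, and named genes circled.

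Most markers of the line were present. Of 10 myoblast markers, 9 were at 1 FPKM or more in mock and 9 with BMP2, the exception in both being the satellite cell factor Pax7 (0.118 ± 0.042 and 0.463 ± 0.075 FPKM). Neural, glial, blood, endothelial and epithelial markers were mostly under 1 FPKM. Of 14 neural and glial genes 3 reached it in mock and 1 with BMP2. The counts were 3 and 4 of 12 blood and endothelial genes, and 3 and 2 of 10 epithelial genes. Adipocyte genes were not mostly absent, with 10 of 20 at 1 FPKM or more in mock and 11 with BMP2. Of 16 chondrocyte genes 2 and 3 reached it. In bulk RNA, a change in the share of cells of a type and a change in RNA per cell cannot be told apart.

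Many negative feedback genes of the BMP pathway were higher, inside the cell and among the secreted antagonists. Of 24 measured BMP inhibitors and feedback genes, 12 rose, none fell and 22 had a ratio above 0, with a median log2 ratio of 1.00 beside 0.04 over all genes. Smad6, the inhibitory SMAD that competes for SMAD1, was at 13.2 ± 0.54 FPKM in mock and 102 ± 2.5 with BMP2, log2 ratio 2.86, or 1.74 from RefSeq transcripts alone. Smad7, which blocks both the BMP and TGF-beta receptors, was at 4.97 ± 0.32 and 27.9 ± 0.64 (log2 ratio 2.28). In the library labelled shKSRP these genes were at 18.1 ± 1.1 and 8.04 ± 0.32, nearer to mock than to the BMP2 library. The secreted antagonists moved with them. Noggin (Nog), which caps BMP ligands, went from 1.63 ± 0.24 to 8.26 ± 0.54 FPKM (log2 ratio 1.82), chordin (Chrd) from 2.40 ± 0.22 to 7.90 ± 0.40 (log2 ratio 1.39) and follistatin (Fst), an activin and BMP trap, from 9.96 ± 0.64 to 32.8 ± 1.2 (log2 ratio 1.62). Bambi, a decoy receptor that lacks a kinase, stood at only 2.24 ± 0.17 FPKM with BMP2 and 0.377 ± 0.069 in mock.

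The 4 Id genes, inhibitors of bHLH factors and the textbook early targets of BMP, did not move as 1 block. Id1 was at 289 ± 4.9 FPKM in mock and 212 ± 4.2 with BMP2, so it was lower and within the 2-fold rule (log2 ratio -0.44). Id2 was at 76.3 ± 2.4 and 106 ± 2.4 (log2 ratio 0.46), and Id3, the most abundant, at 489 ± 6.2 and 732 ± 7.6 (log2 ratio 0.58). With the trend of the ratio over transcript length taken out, the ratios of Id1, Id2 and Id3 were -0.09, 0.73 and 0.92. With summed FPKM set equal they were -0.18, 0.72 and 0.84. Only Id4 passed 2-fold, from 1.31 ± 0.23 to 5.34 ± 0.48 (log2 ratio 1.45, or 0.79 from RefSeq transcripts alone). Id1 and Id3 were thus already abundant in growth medium. All 4 were lower in the library labelled shKSRP, at 104 ± 2.8, 33.3 ± 1.3, 323 ± 4.8 and 0.167 ± 0.079.

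Of 15 measured BMP ligands, receptors and signalling SMADs 2 rose and 1 fell, beside 7.76% and 7.41% of all genes, with a median of 0.26. This median depends on the setting, at 1.01 over the 10 members measurable from RefSeq transcripts alone, 0.08 with no filter on low values and 0.02 with the trend of the ratio over transcript length taken out. The type I receptor Acvr1 (ALK2) rose from 18.4 ± 0.77 to 53.1 ± 1.2 FPKM, and Bmp4 from 9.15 ± 0.77 to 21.7 ± 1.1 (log2 ratio 1.16), while Smad1 was at 19.9 ± 0.87 and 20.3 ± 0.66 (log2 ratio 0.03, or 1.19 from RefSeq transcripts alone) and Smad4 at 27.3 ± 1.1 and 21.1 ± 0.68 (log2 ratio -0.36, or 1.95 from RefSeq transcripts alone). The member that fell was Gdf15, a distant relative of the ligands that is induced by stress, at 162 ± 3.3 in mock and 43.7 ± 1.7 with BMP2. Gdf15 was low in the library labelled shKSRP as well, at 28.6 ± 1.3. Among 21 other transcription factors known to respond to BMP, 4 rose and none fell. Hey1, a Hairy-related repressor that both BMP and Notch induce, stood at 6.05 ± 0.55 FPKM in mock and 51.4 ± 1.6 with BMP2 (log2 ratio 2.89). The library labelled shKSRP had 7.38 ± 0.45. The others that rose were Tcf7 (3.80 ± 0.38 and 32.1 ± 1.1), a partner of beta-catenin, the repressor Snai2 (24.8 ± 0.90 and 106 ± 1.9) and Tbx3 (1.31 ± 0.15 and 6.23 ± 0.33). Their levels in the library labelled shKSRP were 20.2 ± 0.90, 39.0 ± 1.1 and 3.45 ± 0.24. In that library, without BMP2, 4 of 22 measured members of this list were higher than mock by 2-fold and 3 lower. Msx2, a homeobox target, was at 1.20 ± 0.19 and 2.26 ± 0.27 (log2 ratio 0.56). Dlx5 was at 0.429 ± 0.15 with BMP2 and listed at 0 in mock, which can be a failed estimate.

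Several osteoblast genes were higher with BMP2 and others stayed inside the 2-fold rule. Sp7 (osterix), the factor that follows Runx2 in bone formation, was at 0.187 ± 0.073 FPKM in mock and 8.12 ± 0.51 with BMP2 (log2 ratio 2.94), and stayed at 0.527 ± 0.12 in the library labelled shKSRP. Runx2 itself was at 8.55 ± 0.34 and 12.8 ± 0.46, inside the 2-fold rule, and its level in the library labelled shKSRP was 13.6 ± 0.43. Its log2 ratio of 0.53 becomes -0.02 from RefSeq transcripts alone. Alpl, the tissue-nonspecific alkaline phosphatase that is the standard readout of osteoblast differentiation, went from 0.0518 ± 0.037 to 12.8 ± 0.82 FPKM (log2 ratio 3.71, or 2.86 from RefSeq transcripts alone) against 0.447 ± 0.10 in the library labelled shKSRP. Pth1r, the parathyroid hormone receptor of osteoblasts, went from 0.253 ± 0.11 to 3.20 ± 0.43 (log2 ratio 1.74). Of 22 measured osteoblast transcription factors 5 rose and 2 fell, with a median of 0.54 that becomes 0.30 with no filter or with the length trend taken out and 0.27 with a pseudocount of 5. Those that fell were Runx3 and Fosl1, but the half-width of Fosl1 in mock is larger than its level, so its fall is unresolved. In the library labelled shKSRP, without BMP2, 7 of 21 measured osteoblast transcription factors were higher than mock by 2-fold and 4 lower. Of 23 measured genes of bone matrix and mineralization 12 rose and 1 fell, with a median of 1.07 (0.58 with a pseudocount of 5).

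Collagen I, the main protein of bone matrix, was higher in both chains. Col1a2 went from 209 ± 1.6 to 813 ± 4.8 FPKM (log2 ratio 1.96, or 0.87 from RefSeq transcripts alone), and Col1a1, its partner chain, from 2.88 ± 0.23 to 31.9 ± 0.87 (log2 ratio 3.09). Osteonectin (Sparc), which binds collagen and calcium, was at 691 ± 4.4 and 1857 ± 8.2, and periostin (Postn) at 1.64 ± 0.24 and 10.6 ± 0.57 (log2 ratio 2.14). Sparc was as high or higher in the library labelled shKSRP (1904 ± 8.8), whereas Postn was at 1.56 ± 0.20 there. Tnfrsf11b (osteoprotegerin), the decoy for RANKL, rose from 0.860 ± 0.14 to 3.79 ± 0.30. Bone sialoprotein (Ibsp) was listed at 0 in all 3 libraries, which can be a failed estimate and gives no value. Osteocalcin (Bglap2, at a locus shared with another gene) was at 23.2 ± 2.2 and 43.0 ± 3.0 (log2 ratio 0.86), and osteopontin (Spp1) fell from 987 ± 6.9 to 471 ± 4.8 (log2 ratio -1.07). Both calls depend on the scaling: with the length trend taken out or summed FPKM set equal, Bglap2 passed 2-fold (1.34 and 1.12) and Spp1 did not (-0.96 and -0.80).

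**Figure D2:**
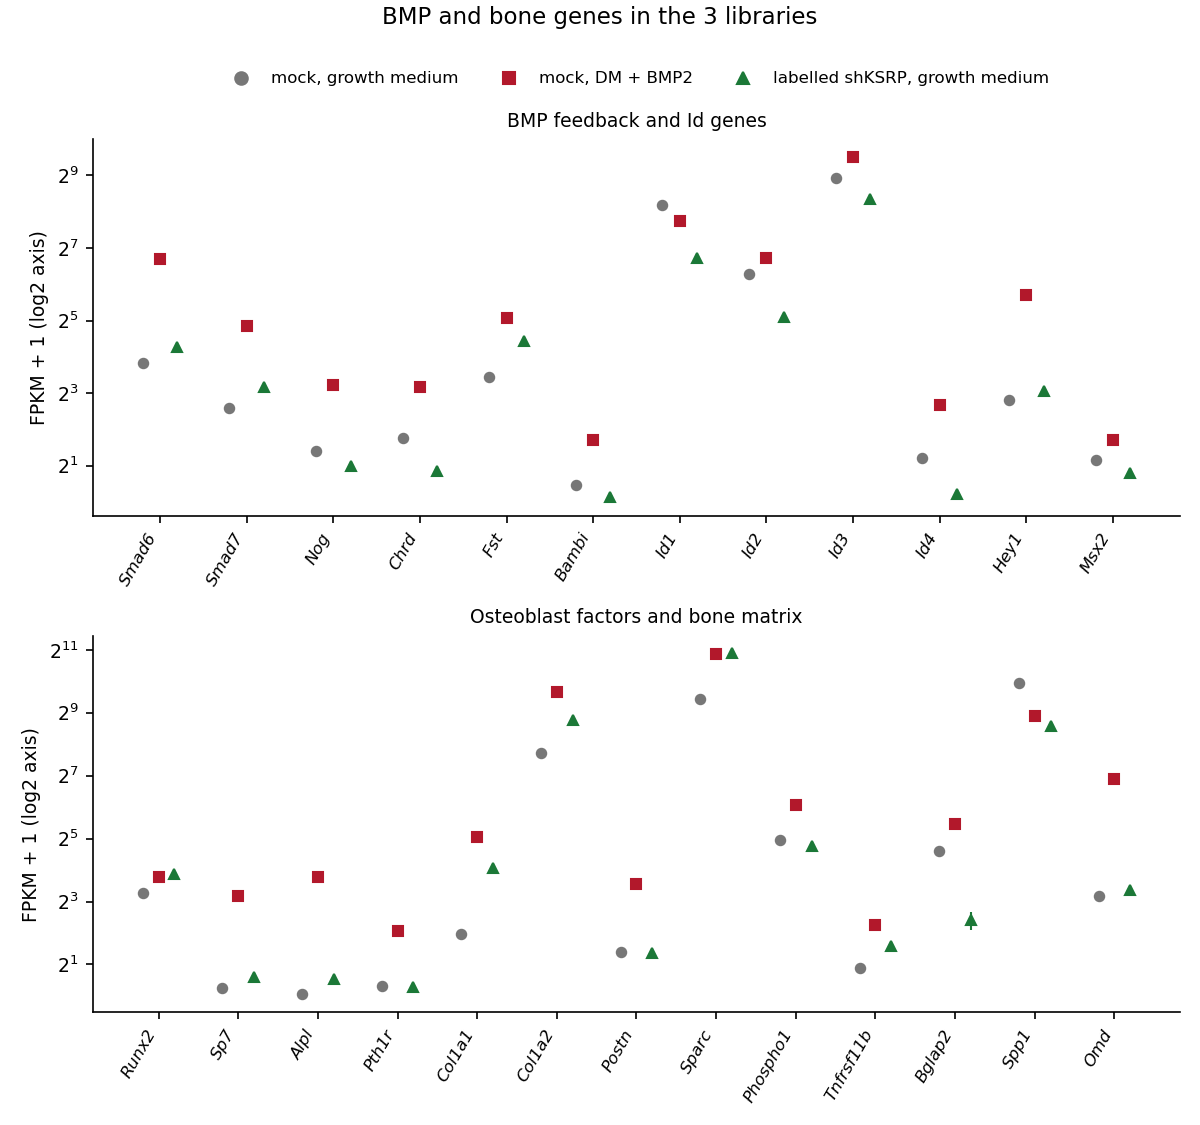
FPKM + 1 on a log2 axis for BMP feedback and Id genes (top) and osteoblast and bone matrix genes (bottom) in the 3 libraries, with bars for the half-width of the deposited 95% interval. The BMP2 library (red squares) lies above both growth-medium libraries for Smad6, Smad7, Hey1, Sp7, Alpl and Omd, while Id1 and Spp1 are highest in mock.

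The wider extracellular matrix was higher as well, led by the small leucine-rich proteoglycans, which bind collagen fibrils and growth factors. Of 8 measured members 7 rose, with a median of 2.90, or 1.69 over 10 members with no filter on low values. Prelp, at a locus shared with another gene, had the highest ratio of all 10728 genes, at 16.3 ± 0.67 FPKM in mock and 467 ± 2.9 with BMP2 (log2 ratio 4.76, or 5.69 from RefSeq transcripts alone). Osteoglycin (Ogn) went from 45.5 ± 1.1 to 563 ± 4.8 (log2 ratio 3.60), fibromodulin (Fmod) from 2.03 ± 0.26 to 51.6 ± 1.1 (log2 ratio 4.12, or 4.86 from RefSeq transcripts alone) and osteomodulin (Omd), a proteoglycan of mineralized tissue, from 7.99 ± 0.55 to 119 ± 2.5 (log2 ratio 3.74). These do not share 1 pattern across the series. Omd was at 9.39 ± 0.68 in the library labelled shKSRP, close to mock, but Ogn was at 373 ± 3.3 and Fmod at 151 ± 1.8 there, without BMP2. Asporin (Aspn) stood at 4.67 ± 0.41 with BMP2 and was listed at 0 in both growth-medium libraries, where a 0 can be a failed estimate. Of 22 measured collagen chains 9 rose and none fell, with a median of 0.81 (1.35 over 17 chains from RefSeq transcripts alone). Among them was the collagen VI chain Col6a1 (43.7 ± 1.1 and 201 ± 2.4, log2 ratio 2.18, or 3.02 from RefSeq transcripts alone). Of 31 glycoproteins of the matrix and elastic fibre 13 rose and 2 fell. Thrombospondin-1 (Thbs1), an activator of latent TGF-beta, reached 1900.1 ± 7.7 FPKM from 211 ± 1.8 (log2 ratio 3.17, or 1.43 from RefSeq transcripts alone). Without BMP2, in the library labelled shKSRP, 9 of 20 collagen chains (median 0.82) and 12 of 30 glycoproteins were also at least 2-fold above mock. Col1a1 stood at 15.7 ± 0.49 FPKM there, Col1a2 at 431 ± 2.7, Col6a1 at 158 ± 1.5 and Thbs1 at 1539 ± 4.8. Of 21 matrix proteases and inhibitors 7 rose and none fell. The 4 largest rises were in the metalloproteases Mmp11 (20.1 ± 0.84 and 123 ± 1.9, at a shared locus), Mmp2 (25.9 ± 0.81 and 127 ± 1.7), Mmp28 (4.31 ± 0.26 and 16.9 ± 0.51) and Mmp14 (168 ± 1.7 and 512 ± 3.7), the membrane protease that activates pro-Mmp2.

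Wnt signalling genes moved on both the agonist and the antagonist side. Of 13 measured Wnt antagonists 7 rose and none fell, with a median of 1.08. Many of them are low, and the median ran from 0.32 with a pseudocount of 5 and 0.42 with no filter to 2.04 with a pseudocount of 0.1 and 2.98 over the 6 at 5 FPKM or more. Of 28 ligands, receptors and TCF factors 10 rose and none fell, with a median of 0.75 (0.40 with a pseudocount of 5). In the library labelled shKSRP, without BMP2, 9 of 28 of this list were higher than mock by 2-fold and 1 lower. Of 12 antagonists measured there, 5 were higher and 2 lower. The secreted antagonist Sfrp2 was at 20.3 ± 0.82 FPKM in mock and 395 ± 3.7 with BMP2 (log2 ratio 4.21), Kremen1, a receptor for Dickkopf proteins, at 5.13 ± 0.32 and 108 ± 1.5 (log2 ratio 4.16, or 3.14 from RefSeq transcripts alone), and Nkd2, a Dishevelled inhibitor, at 0.937 ± 0.15 and 23.1 ± 0.61. All 3 were also high in the library labelled shKSRP, at 286 ± 2.9, 97.4 ± 1.1 and 24.0 ± 0.72. Wnt4 was different, with 18.1 ± 0.55 in mock, 93.0 ± 1.3 under BMP2 (log2 ratio 2.30) and only 11.5 ± 0.42 under the shKSRP label. The negative regulator Notum, a lipase that inactivates Wnt proteins, went from 1.54 ± 0.28 to 11.7 ± 0.63, and Axin2, the common readout of beta-catenin activity, from 0.127 ± 0.052 to 1.39 ± 0.17 (log2 ratio 1.08).

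Some genes of the TGF-beta branch were higher too. Of 19 measured TGF-beta and activin genes 5 rose, Inhba among them, and none fell (median 0.48, or 0.25 with a pseudocount of 5). In the library labelled shKSRP, without BMP2, 6 of 18 were higher than mock by 2-fold and 2 lower (median 0.42). Tgfb3 was at 13.9 ± 0.62 FPKM in mock and 167 ± 3.7 with BMP2 (log2 ratio 3.49), with 44.4 ± 1.4 in the library labelled shKSRP. Tgfb1 was at 37.5 ± 1.1 and 111 ± 3.1 (log2 ratio 1.54, or 0.49 from RefSeq transcripts alone), and the matrix protein Tgfbi, named for its induction by TGF-beta, at 0.266 ± 0.080 and 5.99 ± 0.55 (log2 ratio 2.47). Inhba, the activin A subunit, was at 9.11 ± 0.39 and 39.0, but the deposited half-width of the second value is larger than the value itself, so its ratio of 1.98 is unresolved. Of 27 growth factors and receptors of the EGF, FGF, PDGF, VEGF and HGF families 4 rose and 4 fell. Areg (amphiregulin), an EGF receptor ligand, fell from 22.4 ± 1.1 to 1.43 ± 0.29 (log2 ratio -3.27), and was also low in the library labelled shKSRP (1.87 ± 0.32). Pdgfra, a receptor of mesenchymal precursors, rose from 1.58 ± 0.12 to 6.95 ± 0.26, and Fgfr1 rose from 34.0 ± 0.74 to 166 ± 3.0, where the direction turns from RefSeq transcripts alone (-0.71).

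**Figure D3:**
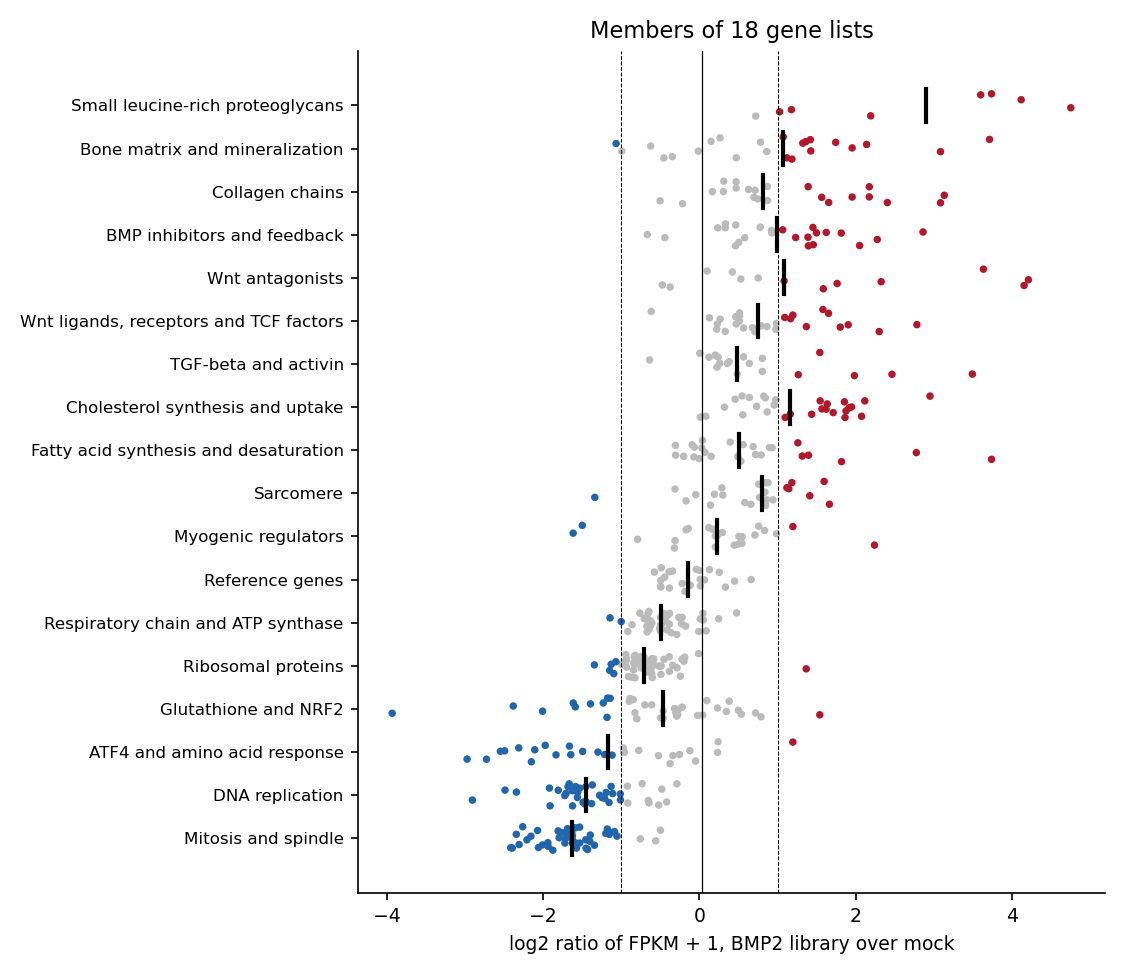
Log2 ratio of FPKM + 1, BMP2 library over mock, of each measured member of 18 gene lists, with red and blue points past the 2-fold rule (dashed lines), a thick bar at each list's median and a thin line at the median of all genes, 0.04. The medians run from 2.90 for small leucine-rich proteoglycans to -1.63 for mitosis and spindle.

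Most genes of cell division were lower with BMP2. Of 48 measured genes of mitosis and the spindle 45 fell and none rose, with a median log2 ratio of -1.63, and of 43 genes of DNA replication 34 fell and none rose, with a median of -1.45. The mitotic kinase Cdk1 stood at 214 ± 4.2 FPKM in mock and 68.6 ± 2.3 with BMP2 (log2 ratio -1.63, or -2.45 from RefSeq transcripts alone). The ubiquitin-conjugating enzyme Ube2c, which works with the anaphase-promoting complex and lies at a shared locus, fell from 231 ± 4.3 to 42.5 ± 1.9 (log2 ratio -2.42), and the spindle checkpoint kinase Bub1 from 50.8 ± 1.9 to 8.84 ± 0.50 (log2 ratio -2.40). The 3 members inside the 2-fold rule were Knl1, Cdc25b and Smc2, all with a ratio below 0. Aurka fell from 69.1 ± 1.7 to 13.1 ± 0.72, and turns to 0.34 from RefSeq transcripts alone. In S phase, thymidine kinase (Tk1) fell from 208 ± 4.2 to 36.2 ± 1.4 (log2 ratio -2.49, or -1.08 from RefSeq transcripts alone). The library labelled shKSRP, in growth medium, shares the mock control, and there 40 of 48 mitosis genes and 36 of 45 replication genes were lower by 2-fold, with 11% of all its 10657 genes lower and 9.67% higher. Among 18 measured D cyclins, CDK inhibitors, RB family genes and other G1 regulators 4 fell and 1 rose. Those that fell were Ccnd1, the inhibitors Cdkn2c and Cdkn2d, and the growth factor-induced Myc, whose direction turns from RefSeq transcripts alone (0.59). Cdkn2c and Cdkn2d were inside the rule with the length trend taken out (-0.88 and -0.83) or summed FPKM set equal (-0.94 and -0.85). The RB relative Rbl2 only just rose (1.00) and was inside the rule with the length trend taken out. Cyclin D1 (Ccnd1), which growth factors induce, fell from 146 ± 1.6 to 51.0 ± 1.2 (log2 ratio -1.50, or -3.06 from RefSeq transcripts alone). The CDK inhibitor p21 (Cdkn1a) was at 189 ± 2.6 and 138 ± 2.2, and p57 (Cdkn1c) at 0.724 ± 0.18 and 2.29 ± 0.41 (log2 ratio 0.93).

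Many late cell cycle genes are known to carry a cell cycle homology region and CCAAT boxes at their start, so the 100 bases before the start are shown for the 6 measured mitosis genes with the largest falls among those that hold both motifs there. The sequences are RefSeq's, build GRCm38.p6, 5′ to 3′ on the gene's strand, with TTTGAA (or TTCAAA, its reverse complement) and CCAAT (or ATTGG) in capitals.
Ube2c: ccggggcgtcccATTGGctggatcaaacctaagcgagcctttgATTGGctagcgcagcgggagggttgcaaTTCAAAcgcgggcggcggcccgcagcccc
Kif11: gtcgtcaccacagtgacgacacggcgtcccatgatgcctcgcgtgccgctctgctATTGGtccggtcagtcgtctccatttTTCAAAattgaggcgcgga
Cdc20: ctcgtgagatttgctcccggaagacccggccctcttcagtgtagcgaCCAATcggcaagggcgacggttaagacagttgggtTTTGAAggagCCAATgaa
Prc1: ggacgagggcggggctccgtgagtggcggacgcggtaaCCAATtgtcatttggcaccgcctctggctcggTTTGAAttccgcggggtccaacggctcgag
Cdk1: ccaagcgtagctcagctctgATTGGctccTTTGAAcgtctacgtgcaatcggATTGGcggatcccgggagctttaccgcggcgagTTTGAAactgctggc
Top2a: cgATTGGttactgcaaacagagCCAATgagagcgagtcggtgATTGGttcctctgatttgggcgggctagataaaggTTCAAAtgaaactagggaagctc
Ube2c lies at chr2:164769829-164769928 (plus), Kif11 at chr19:37376282-37376381 (plus), Cdc20 at chr4:118437344-118437443 (minus), Prc1 at chr7:80294376-80294475 (plus), Cdk1 at chr10:69352913-69353012 (minus) and Top2a at chr11:99024190-99024289 (minus). In all 6 the TTTGAA match nearest the start begins 15 to 30 bases before it, and none overlaps a CCAAT match. In the full table of promoters, from 250 bases before to 50 after each start, TTTGAA on either strand was found in 29 of 41 promoters of the mitosis list (70.7%), in 6 of 44 of the DNA replication list (13.6%) and in 17.9% of all 32851 promoters. CCAAT was found in 70.7% of the mitosis, 56.8% of the replication and 37.4% of all promoters. Within the 100 bases shown, TTTGAA was in 9 of the 41 mitosis promoters (22%), 6.82% of the replication promoters and 5.77% of all, and CCAAT in 61%, 47.7% and 18.9%. A match describes the letters and is not a measured site. The measured falls of these genes were from 30.1 ± 0.91 to 5.48 ± 0.29 for Kif11, a spindle motor (log2 ratio -2.26, or -0.64 from RefSeq transcripts alone), from 137 ± 2.3 to 32.0 ± 1.1 for Cdc20, the activator of the anaphase-promoting complex, from 55.4 ± 1.1 to 15.4 ± 0.60 for Prc1, which bundles midzone microtubules, and from 75.2 ± 1.1 to 23.7 ± 0.69 for topoisomerase Top2a.

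Every measured gene of cholesterol synthesis and uptake had a ratio above 0, though some barely so (Ebp 35.7 ± 1.2 and 35.9 ± 1.3). Of 29 members 16 rose and none fell, with a median of 1.16. These genes are controlled by SREBP2, the product of Srebf2, which is released from the membrane when sterols are low. Srebf2 was at 26.2 ± 0.60 FPKM in mock and 97.3 ± 1.8 with BMP2 (log2 ratio 1.86, or 0.86 from RefSeq transcripts alone). Farnesyl diphosphate synthase (Fdps) was at 90.0 ± 2.3 and 394 ± 4.8 (log2 ratio 2.12), and the sterol-chain enzymes Nsdhl at 16.3 ± 1.0 and 65.6 ± 1.8, Msmo1 at 35.4 ± 1.3 and 136 ± 2.8 and Cyp51 at 24.4 ± 0.65 and 92.2 ± 1.2. In the library labelled shKSRP these 4 were below mock, at 53.2 ± 1.7, 12.4 ± 0.58, 24.2 ± 0.90 and 16.2 ± 0.48, and 3 of 26 measured list members passed 2-fold upwards there and 4 downwards (median 0.01). Hmgcs1 was listed at 0 in all 3 libraries, which can be a failed estimate. Of 6 measured efflux genes none passed 2-fold (median 0.07).

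The 100 bases before the start are shown for the 3 cholesterol genes with the largest rises among those with a CCAAT box there, again with CCAAT or ATTGG in capitals.
Tm7sf2: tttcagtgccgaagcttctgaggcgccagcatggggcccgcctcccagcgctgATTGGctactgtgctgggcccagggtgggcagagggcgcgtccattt
Nsdhl: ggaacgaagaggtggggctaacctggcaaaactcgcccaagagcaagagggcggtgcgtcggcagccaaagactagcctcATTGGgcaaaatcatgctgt
Msmo1: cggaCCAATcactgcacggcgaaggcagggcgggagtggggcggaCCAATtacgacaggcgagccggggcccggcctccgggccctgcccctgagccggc
Tm7sf2, a sterol reductase at a shared locus, lies at chr19:6067851-6067950 (minus), Nsdhl at chrX:72918421-72918520 (plus) and Msmo1 at chr8:64733579-64733678 (minus). CCAAT was found in 71.4% of 28 promoters of the list, beside 37.4% of all. The sterol regulatory element core TCACNCCAC was found in 1 of the 28 (3.57%) and in 1.24% of all promoters, a difference of too few promoters to read.

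In fatty acid synthesis 6 of 26 measured genes rose and none fell, with a median of 0.51. The rise was largest in the desaturase Scd1, from 40.0 ± 0.74 to 546 ± 3.3 FPKM, but it rests on assembled transcripts, with a log2 ratio of 3.74 in all and 0.69 from RefSeq transcripts alone. Acss2, which makes acetyl-CoA from acetate, went from 2.49 ± 0.24 to 11.3 ± 0.52 (log2 ratio 1.82). Fatty acid synthase (Fasn, at a shared locus) was at 33.2 ± 0.75 and 34.0 ± 0.58, and Srebf1 at 23.4 ± 0.74 and 35.0 ± 0.98 (log2 ratio 0.56).

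Genes of the amino acid response fell. ATF4 is the transcription factor that raises amino acid synthesis, transport and tRNA charging when translation initiation is restrained. Of 28 measured genes of this response 15 fell and 1 rose, with a median of -1.17. The serine synthesis enzymes Phgdh and Psat1 were at 248 ± 3.0 and 143 ± 2.3 FPKM in mock and 41.6 ± 1.2 and 17.4 ± 0.74 with BMP2 (log2 ratios -2.55 and -2.97). Psph, which completes that pathway, was at 57.2 ± 1.6 in mock. With BMP2 it was listed at 0, which can be a failed estimate and gives no value, so it is not among the measured genes. Asparagine synthetase (Asns) was at 119 ± 2.3 and 23.1 ± 1.1 (log2 ratio -2.31), the pseudokinase Trib3 at 18.6 ± 0.87 and 2.47 ± 0.29 (log2 ratio -2.49), and Chac1, which degrades glutathione, at 39.2 ± 1.3 and 5.08 ± 0.48 (log2 ratio -2.73). Atf4 mRNA itself was at 447 ± 5.5 and 227 ± 4.0, just inside the rule (log2 ratio -0.98). The member that rose was the amino acid transporter Slc38a2, from 94.6 ± 1.1 to 218 ± 2.4 (1.20), and its direction turns to -0.38 from RefSeq transcripts alone. In the library labelled shKSRP the levels were near those of mock or above, at 214 ± 2.6 for Phgdh, 146 ± 2.1 for Psat1, 147 ± 2.5 for Asns and 60.8 ± 1.5 for Chac1, and of 30 members 4 were higher than mock and none lower.

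**Figure D4:**
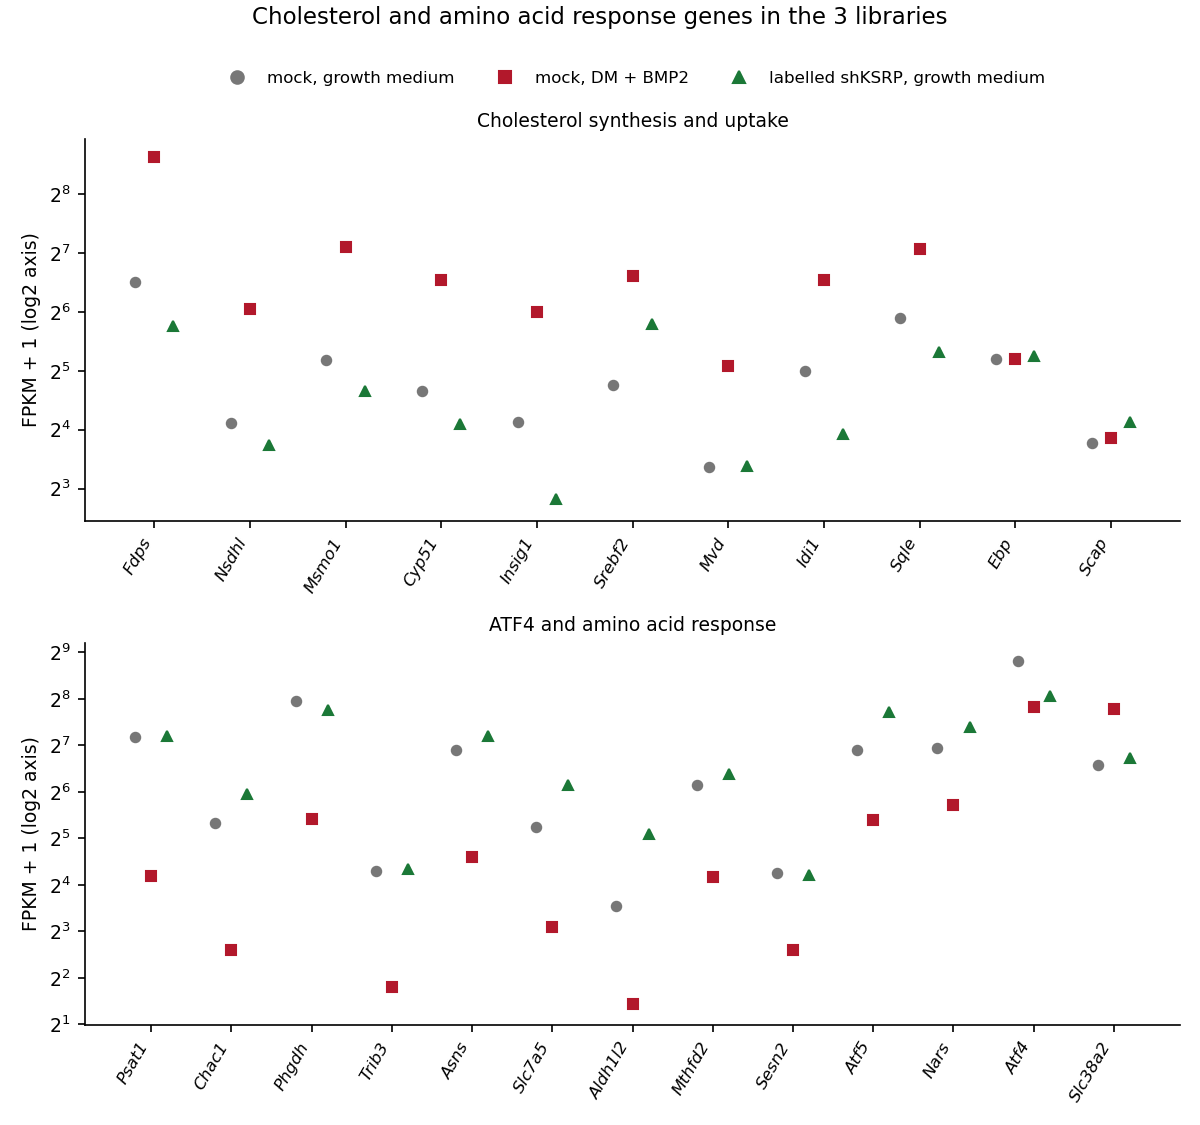
FPKM + 1 on a log2 axis for 11 genes of cholesterol synthesis and uptake (top) and 13 genes of the amino acid response (bottom) in the 3 libraries, with bars for the half-width of the deposited 95% interval. The BMP2 library (red squares) is highest for Fdps and Insig1 and lowest for Psat1, Phgdh, Asns and Trib3, while Ebp and Scap lie close together.

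Antioxidant genes under NRF2 were lower in part. Of 37 measured members 10 fell and 1 rose, with a median of -0.47. Heme oxygenase (Hmox1) fell from 165 ± 3.2 to 40.3 ± 1.3 FPKM (log2 ratio -2.01) and the glutathione transferase Gsta1 from 31.7 ± 1.7 to 1.14 ± 0.32 (log2 ratio -3.93). The ferritin chains, among the most abundant mRNAs of the cells, fell from 4678 ± 20.2 to 1992 ± 13.4 (Fth1) and from 4832 ± 19.2 to 2139 ± 12.9 (Ftl1). With summed FPKM set equal, both ferritin chains were inside the 2-fold rule. Hmox1 was at 226 ± 3.0 in the library labelled shKSRP, above mock. Of 27 p53 targets 2 rose and 2 fell, near the shares over all genes (7.76% higher and 7.41% lower). Their median was -0.49, and 5 fell with the length trend taken out. Of 28 endoplasmic reticulum chaperones and unfolded protein response genes 1 rose and none fell (median 0.29).

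Muscle genes gave a mixed picture. Myod1, the master factor of the muscle lineage, was at 30.7 ± 1.2 FPKM in mock and 17.3 ± 0.89 with BMP2 (log2 ratio -0.79). Myogenin (Myog), which starts terminal differentiation, was at 9.54 ± 0.67 and 11.3 ± 0.73 (log2 ratio 0.22) and Myf5 at 7.75 ± 0.50 and 9.09 ± 0.54. Of 25 measured myogenic regulators 2 rose and 2 fell, near the shares over all genes (7.76% higher and 7.41% lower). Cdh15, M-cadherin of the myoblast surface, fell from 38.3 ± 0.93 to 5.02 ± 0.34 (log2 ratio -2.71), with 31.1 ± 0.88 in the library labelled shKSRP. Of 24 measured sarcomere genes 6 rose and 1 fell, with a median of 0.80, and 11 rose with the length trend taken out. The median was 0.39 with a pseudocount of 5 or with no filter. The fast myosin light chain Myl1 went from 9.81 ± 1.00 to 33.3 ± 1.9 (log2 ratio 1.66), and cardiac troponin T (Tnnt2, at a shared locus) fell from 91.2 ± 2.4 to 35.4 ± 1.5. The regulatory light chain Mylpf rose from 44.2 ± 2.1 to 119 ± 4.8 (log2 ratio 1.41, or -0.37 from RefSeq transcripts alone), and the calcium release channel Ryr1 from 0.252 ± 0.032 to 3.10 ± 0.60 (1.71). Embryonic myosin (Myh3, at a shared locus) was at 1.34 ± 0.12 and 3.49 ± 0.23, inside the 2-fold rule (0.94). Creatine kinase (Ckm) stayed under 1 FPKM, at 0.622 ± 0.17 and 0.978 ± 0.22, as did Mef2c, at 0.326 ± 0.057 and 0.438 ± 0.080.

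Genes of other mesenchymal lineages could be compared only in part. Of 16 chondrocyte genes only 3 were measurable. Col2a1, the cartilage collagen, rose from 6.95 ± 0.36 to 68.8 ± 1.2 FPKM (log2 ratio 3.14, or 1.66 from RefSeq transcripts alone) and Col10a1, of hypertrophic cartilage, from 0.441 ± 0.095 to 6.64 ± 0.37 (log2 ratio 2.41), with 0.0556 ± 0.025 and 0.420 ± 0.089 in the library labelled shKSRP. Sox9, the cartilage factor, was at 13.7 ± 0.46 and 18.1 ± 0.53, and aggrecan (Acan) stayed under 1 FPKM in both. Of 20 adipocyte genes 11 were measured, and of these only Fabp4 passed 2-fold (0.613 ± 0.28 and 5.10 ± 0.82). Pparg was at 19.5 ± 1.00 and 13.6 ± 0.94, with a log2 ratio of -0.49 that becomes -1.38 from RefSeq transcripts alone. The keratin Krt14, at a shared locus, rose from 114 ± 2.7 to 264 ± 3.3 (log2 ratio 1.20, or 1.88 from RefSeq transcripts alone).

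Serum-response, AP-1 and EGR genes, which fresh serum induces, fell in 8 of 30 cases and rose in 1, with a median of -0.18 that turns to 0.11 from RefSeq transcripts alone and 0.06 with summed FPKM set equal. The falls include the unresolved Fosl1. Of 20 MAPK phosphatase and Sprouty genes 2 fell, among them Dusp4 (24.2 ± 0.57 and 8.20 ± 0.40), and of 26 targets of YAP and TEAD 4 rose and none fell. Over all genes 7.76% were higher and 7.41% lower, so the count of MAPK phosphatase and Sprouty genes is near that share. Of 23 chemokines, cytokines and receptors 5 rose and 3 fell. The chemokines Ccl2 and Ccl7, which attract monocytes, fell from 31.0 ± 1.7 to 5.25 ± 0.72 and from 42.4 ± 2.0 to 11.7 ± 1.1, and the alarmin Il33 rose from 7.26 ± 0.43 to 42.1 ± 1.3 (log2 ratio 2.38, or 1.72 from RefSeq transcripts alone) against 7.88 ± 0.43 in the library labelled shKSRP.

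The lowest ratios of all belonged to the proliferins Prl2c2 and Prl2c3, prolactin-like hormones of a gene cluster whose near-identical copies share fragments and loci. Prl2c2 fell from 1367 ± 11.6 to 46.7 ± 2.4 FPKM and Prl2c3 from 1599.7 ± 11.9 to 70.1 ± 2.9, with 36.5 ± 1.9 and 20.1 ± 1.3 in the library labelled shKSRP. Neuronatin (Nnat), an imprinted membrane protein, fell from 19.6 ± 1.1 to 0.277 ± 0.13 (log2 ratio -4.01), and the mast-cell protease Mcpt8 from 19.6 ± 1.3 to 0.886 ± 0.29. Of the 15 highest ratios, the genes not yet described were Ttll5, Enc1, C1qtnf1, Smoc2 and 1 transcript with no symbol in the tables. The BMP-binding matrix protein Smoc2 went from 5.44 ± 0.40 to 70.8 ± 1.7 (log2 ratio 3.48, or 2.19 from RefSeq transcripts alone). For the tubulin ligase Ttll5 the log2 ratio of 3.95 becomes 1.00 from RefSeq transcripts alone. Of the 15 lowest, Aspm, a spindle pole protein, was at 23.2 ± 0.91 and 1.73 ± 0.11, and its ratio of -3.15 becomes -0.36 from RefSeq transcripts alone. Also among them, Gm3776, at a shared locus, is a glutathione transferase copy. Rpph1, a noncoding RNA, was at 14.3 ± 2.4 and 0.199 ± 0.28, where the second half-width is larger than the level.

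Genes listed at 0 in 1 library were kept out of the counts. There were 220 listed at 0 in mock alone and 239 with BMP2 alone, at 1 FPKM or more on the other side. The highest were Efemp2 (175 ± 2.8 with BMP2, at a shared locus), Rab34 (114 ± 2.4), Acat2 (87.8 ± 1.7, at a shared locus) and Fkbp2 (80.6 ± 3.8, at a shared locus), and in the other direction Spsb2 (382 ± 12.1 in mock), Myl6b (275 ± 3.2, at a shared locus), Fam166a (213 ± 4.4) and Rpl26 (204 ± 7.7, at a shared locus). Rpl26 encodes a ribosomal protein that every cell uses, so a 0 in these files can be a failed estimate, and no fold is given against it.

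Transcript length moved with the ratio. The median log2 ratio was -0.44 over 812 genes whose longest transcript was under 1000 nt and 0.27 over 1116 genes of 6000 nt or more. Of the shortest genes 3.45% were higher and 13.3% lower, and of the longest 12.8% were higher and 6.27% lower. Gene lists of short mRNAs share this: 52 ribosomal protein genes had a median of -0.70, with 5 lower and 1 higher, and 44 genes of the respiratory chain and ATP synthase a median of -0.49, with 2 lower. With the trend over length taken out these medians became -0.31 and -0.18. Only 2 ribosomal protein genes and no respiratory chain gene were then lower by 2-fold. The same step took the medians of mitosis to -1.75, cholesterol to 1.12, bone matrix to 1.15 and the amino acid response to -1.24. It took collagen chains from 0.81 to 0.56, fatty acid synthesis from 0.51 to 0.31, antioxidant genes from -0.47 to -0.30, and the proliferin and granzyme list, with 8 measured genes, from -2.25 to -1.87. That last list is mixed and also holds Sprr1a and the mast-cell protease Mcpt8. The 22 measured reference genes had a median of -0.15, and none passed 2-fold. The part of RNA quality or library preparation in the length trend was not tested.

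**Figure D5:**
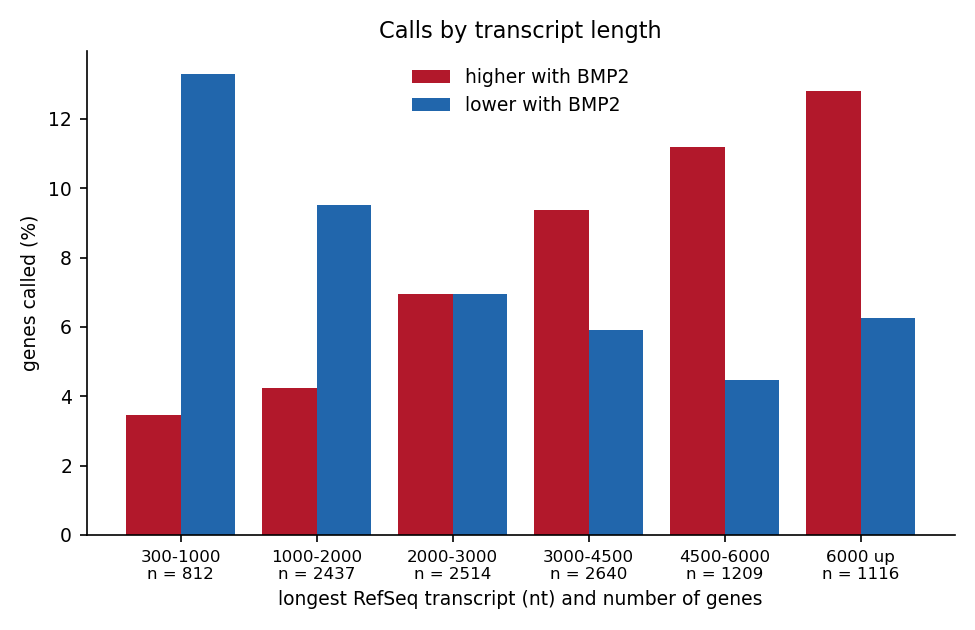
Share of genes called higher (red) and lower (blue) with BMP2 by the length of the longest RefSeq transcript, in 6 bins with the number of genes under each. The share higher goes from 3.45% in the shortest bin to 12.8% in the longest, and the share lower is 13.3% in the shortest bin.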

How the data were processed

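Total RNA of the 3 libraries went through 2 rounds of purification on oligo(dT) beads, and fragments of 250 bp were sequenced on an Illumina HiSeq 2000 after PCR, per the labels' protocols. The authors deposited a Cufflinks transcript file per library, with FPKM and its 95% interval as attributes and a score per transcript that was not used here. The submitters' processing notes name the mm9 build and list Cufflinks 1.3.0, TopHat 1.4.1, Bowtie 0.12.7 and CASAVA 1.8. Settings and strand handling were not given in the sources used here. The files hold no read counts, and depth was estimated from the interval widths of single-transcript loci.

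A gene's FPKM was the sum over its RefSeq transcripts and the assembled transcripts of its locus. Each library was assembled separately, so fragments can move between transcripts. Half-widths come from the upper interval bounds, combined as if transcripts were independent. Of the 10728 genes, 1461 share a locus with another gene. Ratios are log2((FPKM + 1)/(FPKM + 1)), called at 1 or more in size, with no test. Members and 48 gene lists were chosen with earlier results of these data known. List symbols that matched no gene name (Tgfb1i1, Col12a1, H19, Prl2c4, Cd68, Polr2a and Hbb-b1) were not counted, although a transcript whose accession no table pairs with a symbol may belong to one of them. Named genes were the 15 highest and 15 lowest ratios, up to 4 called members per list, a fixed set of BMP, bone, muscle and sterol genes, and the 4 highest genes listed at 0 on each side; other list members were added after their values were seen. Some genes under this rule are not reported here. Promoters came from a RefSeq table of GRCm38.p6. The scripts, tested on simulated data, used Python 3.11.15, numpy 2.4.6, pandas 2.3.3 and matplotlib 3.10.9.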

Additional observations from a re-analysis of the deposited data

How the results depend on the processing

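With 1 library per group no replicate could be left out. No paired analysis was possible because each group holds 1 library and no result comes from a test. Of 48 gene lists, 34 had a median of at least 0.25 in size, and none of these changed sign in 408 values under the 12 alternatives. The last, setting summed FPKM equal, was chosen after seeing the data. A pseudocount of 5 gave 417 genes higher and 495 lower, and setting summed FPKM equal gave 1347 and 515; the other 10 settings kept both counts within 1.5 times. The median of BMP inhibitors was 0.71 with a pseudocount of 5, 0.92 with no filter, 0.93 at 5 FPKM or more, 1.07 without shared loci, 1.11 with 1 fixed length per gene, 1.17 from RefSeq transcripts or the most abundant one, and 1.26 with equal sums. Bone matrix gave 0.58 with a pseudocount of 5, 0.86 with no filter and at 5 FPKM or more, 0.87 from RefSeq transcripts or the most abundant one, 0.93 with 1 fixed length, 1.14 with a pseudocount of 0.1, 1.15 with the length trend out and 1.25 with equal sums. Mitosis gave -1.35 with a pseudocount of 5, -1.42 with equal sums, -1.71 and -1.72 from the most abundant and all RefSeq transcripts, and -1.75 with a pseudocount of 0.1 and with the length trend out. Cholesterol gave 1.02 with a pseudocount of 5, 1.28 from RefSeq transcripts or the most abundant one, 1.3001 at 5 FPKM or more and 1.43 with equal sums. With equal sums, antioxidant genes gave -0.21, p53 targets -0.24 (-0.31 with a pseudocount of 5), chaperones 0.55 (0.18 from the most abundant transcript), the respiratory chain -0.23, ribosomal proteins -0.44 and reference genes 0.11. RefSeq transcripts gave fatty acid synthesis 0.78 and antioxidant genes -0.30. RefSeq transcripts alone left 101 of 137 called named genes called in the same direction and turned the direction of 11, here with the most abundant transcript second: Aurka (0.34, 0.34), Myc (0.59, 0.51), Dock5 (-0.043, -0.043), Mylpf (-0.37, -0.37), Phlda1 (0.10, 0.10), Fgfr1 (-0.71, -0.48), Plk2 (0.59, 0.59), Pdk4 (-0.031, -0.031), Rpl37 (-1.52, -1.52), Rps6 (0.89, 0.89) and Dysf (-0.41 from RefSeq transcripts). The cause was not tested.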
